A study of Homo sapiens with 4 samples.

Results

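Peaks of reporter activity were examined at 10 interferon-stimulated antiviral genes, out of 19974 protein-coding genes on chromosomes 1 to 22 and X. The genes are the RNA sensor IFIH1, the effectors OAS1, ISG20, IFIT1, IFIT3, ISG15, MX1 and MX2, and the pair IFI44 and IFI44L. They were chosen by the peak calls of these same lists: earlier counts had found many interferon genes near MG132 peaks that lay outside DMSO peaks, and fewer near combination peaks. Which genes have a peak in which list is therefore given as a description. A peak counts as near a gene when its summit lies inside the gene or within 10 kb of either end.

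The cells were MDA-MB-231, an established line from a triple-negative breast cancer, and the assay was STARR-seq, in which fragments placed in a plasmid's transcribed region are read from the RNA they give rise to. The plasmid library was made from fragmented DNA of that line, and RNA was poly-A selected and amplified by PCR before sequencing. The 4 groups were DMSO, 10 µM SHP1705 (a stabilizer of the clock repressor CRY2), 100 nM MG132 (a proteasome inhibitor), and SHP1705 with MG132 at the same doses, here the combination. Drugs were added before the plasmid library was transfected, and RNA was taken 8 h after transfection. There was 1 library and 1 peak list per group, so no spread between replicates exists and no p-value is given. A difference between lists compares libraries. A peak near a gene is reporter RNA or other RNA aligned there, and does not measure that gene's expression in the cells.

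Interferons made by an infected cell act on receptors that switch on a transcription factor complex containing IRF9. That complex binds the interferon-stimulated response element, a DNA motif in the promoters of these genes, and their products then block viral RNA and proteins. The motif is built from repeated GAAA blocks, and plasmids that carry it respond to interferon in reporter assays.

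The tables used here hold promoter windows for 9 of the 10 genes, MX2 being the one without, with 13 windows in all because some genes have several annotated starts. Each window runs from 250 bases before to 50 bases after a start. The core of the response element was searched on both strands as GAAA, any 2 bases, and GAAA again, and neighbouring copies may overlap. It was found in 11 of the 13 windows and in 8 of the 9 genes, all but OAS1. Over all protein-coding genes 3.17% of 22132 windows held it. Blocks with another spacing were not counted, and the OAS1 window holds gaaacgaaa, in which the blocks lie closer. The 3 windows printed here are the ones in which a peak covered copies of the element. They are the 250 bases before the start, 5′ to 3′ on the plus strand, from RefSeq on GRCh38.p14, with the element in capitals. They lie at chr1:1013247-1013496 for ISG15, chr10:89392373-89392622 for IFIT1, and chr10:89332279-89332528 for the downstream of the annotated IFIT3 starts.
ISG15: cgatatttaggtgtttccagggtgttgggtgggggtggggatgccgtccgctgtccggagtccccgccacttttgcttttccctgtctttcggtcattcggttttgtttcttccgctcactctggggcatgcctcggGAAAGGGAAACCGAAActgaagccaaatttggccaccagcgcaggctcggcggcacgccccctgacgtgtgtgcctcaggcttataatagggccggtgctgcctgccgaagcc
IFIT1: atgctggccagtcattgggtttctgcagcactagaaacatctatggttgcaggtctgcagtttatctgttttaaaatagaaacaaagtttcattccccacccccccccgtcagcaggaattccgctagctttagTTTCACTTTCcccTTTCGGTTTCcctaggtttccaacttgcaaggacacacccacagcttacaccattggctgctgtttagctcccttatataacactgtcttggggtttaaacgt
IFIT3: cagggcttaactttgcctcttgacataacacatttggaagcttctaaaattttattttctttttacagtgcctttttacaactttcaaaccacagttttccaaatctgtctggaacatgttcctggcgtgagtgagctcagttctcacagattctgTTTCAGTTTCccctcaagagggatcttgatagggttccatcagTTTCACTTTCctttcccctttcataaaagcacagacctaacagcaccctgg

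In ISG15 the element occurs as 2 overlapping copies whose first bases lie 113 and 107 bases before the start. In IFIT1 the copies start 116 and 103 bases before it, and in IFIT3 they start 94 and 51 bases before the start at position 89332529. An MG132 peak covered 241 of the 250 ISG15 bases and both copies of the element. It spanned chr1:1013256-1013633 (hg38), was 378 bp wide, and had a pileup of 108 fragments, or 3.96 per 1000000 fragments of the library (FPM). The pileup is the number of fragments that cover the summit. DMSO, SHP1705 and the combination had no peak over this promoter. At IFIT1 the covering peak came from the combination instead. It spanned chr10:89392435-89392794, covered 188 of the 250 bases and both copies, and reached 88 fragments, or 3.11 FPM. At the downstream IFIT3 start an MG132 peak covered all 250 bases and both copies, with 195 fragments or 7.15 FPM. A SHP1705 peak covered 216 of those bases and both copies, with 35 fragments or 0.296 FPM. No DMSO peak touched any promoter window of the 9 genes.

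Counted over genes, promoter windows were overlapped in 2 of 9 members in MG132 (ISG15 and IFIT3), against 2.33% of all protein-coding genes with a window. The counts were 1 of 9 in the combination (IFIT1) against 1.87%, 0 of 9 in DMSO against 1.77%, and 2 of 9 in SHP1705 (IFIH1 and IFIT3) against 22.5%. The IFIH1 peak covered only bases after the start. The genes were chosen on MG132 and combination peaks near them, so these member counts are a description. With the members left out, MG132 peaks overlapped 15 of 691 windows that hold the element (2.17%), against 1.84% of windows without the element. The values were 2.03% and 1.41% in the combination, 1.59% and 1.35% in DMSO, and 15.5% and 18.5% in SHP1705. The other searched motifs were rarer among the members. The STAT dimer site TTCNNNGAA stood in windows of MX1 and OAS1, where 6.79% of all windows held it. The clock E-box CACGTG stood in ISG20 alone, against 8.34% of all windows. The NF-kB decamer occurred in 0 of 13 windows and in 0.19% of all.

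Peaks lay near 9 of the 10 genes in MG132, 5 in the combination, 4 in DMSO and 10 in SHP1705. The share of all protein-coding genes with a peak by the same rule was 71.3% in MG132, 64.0% in the combination, 58.8% in DMSO and 88.4% in SHP1705. IFI44L alone lacked an MG132 peak. The combination had peaks near IFI44L, IFIT1, IFIT3, MX1 and MX2. DMSO had peaks near IFIH1, ISG15, ISG20 and MX1. List length moved with these counts, at 69842 peaks in MG132, 57174 in the combination, 47822 in DMSO and 85840 in SHP1705. With every list cut to its 47822 peaks of highest deposited −log10 p, MG132 had peaks near 9 members and the combination near 4, against 58.6% and 57.8% of all genes. The SHP1705 library also held 118324303 fragments, against 27289266 to 29717604 in the other 3.

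**Figure D1:**
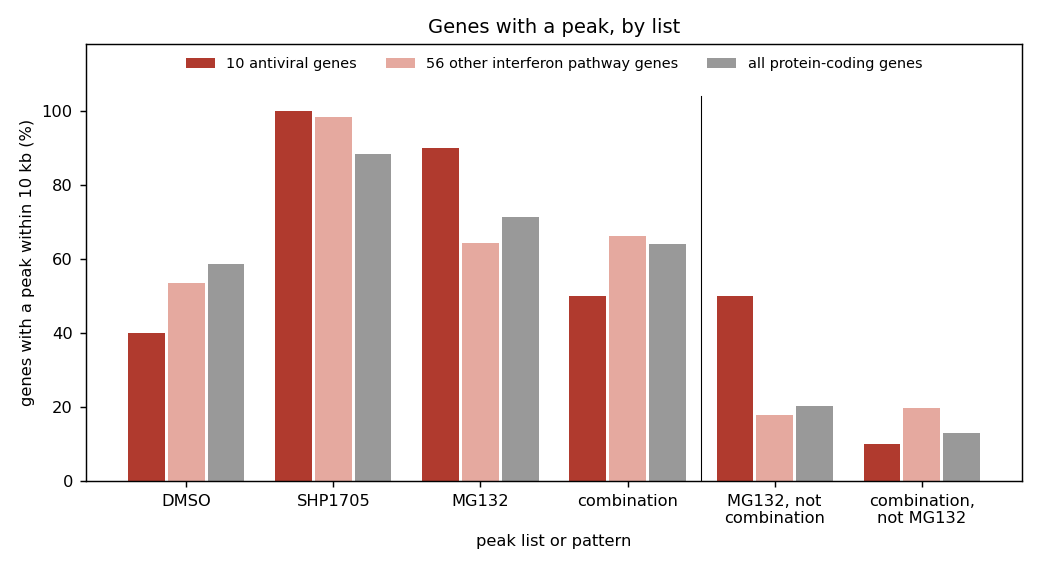
Percent of genes with a peak within 10 kb (vertical axis) in each list, and with a peak in MG132 but not the combination or the reverse, for the 10 antiviral genes, 56 other interferon pathway genes and all 19974 protein-coding genes. Of the antiviral genes, which were picked on this contrast, 5 had a peak in MG132 and none in the combination. Of the other 56 pathway genes 10 did, against 20.2% of all protein-coding genes.

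MG132 against the combination asks what adding the CRY2 stabilizer does to peaks seen under proteasome inhibition. IFI44, IFIH1, ISG15, ISG20 and OAS1, 5 of 10, had a peak in MG132 and none in the combination, and IFI44L, 1 of 10, had the reverse. Over all protein-coding genes these patterns made up 20.2% and 12.9%. The members were picked on this contrast, so the counts show how they were chosen. IFIT1, IFIT3, MX1 and MX2 had peaks in both lists, with no overlap between them. Of 15 distinct MG132 peaks, 15 overlapped no combination peak, where 86.7% of all MG132 peaks overlapped none. Of 6 combination peaks, 6 overlapped no MG132 peak, where the share was 83.7%. Among summits within 10 kb of the gene, the nearest MG132 and combination summits were 2277 bp apart at IFIT1, 7729 bp at IFIT3, 17689 bp at MX1 and 39482 bp at MX2. The distances at the MX genes depend on that limit. An MG132 summit 10198 bp from MX2, with 4.10 FPM, lay 921 bp from the combination summit there. Another, 10550 bp from MX1 with 7.37 FPM, lay 4736 bp from the combination summit near MX1.

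The MG132 peaks were all well above the lowest height called. The lowest pileup called was 0.440 FPM in MG132, 0.424 in the combination, 0.437 in DMSO and 0.237 in SHP1705. The 15 MG132 peaks ran from 2.42 to 16.3 FPM, with a median of 7.15, against 5.42 over all MG132 peaks. The lowest of them was 5.71 times the lowest pileup called anywhere in the combination. The caller judged each peak against local background, so this does not give the limit at these sites. The genes were also picked partly on these MG132 peaks. The 6 combination peaks ran from 0.706 to 12.4 FPM, with a median of 6.30 against 7.02 over that list. The 6 DMSO peaks ran from 1.11 to 24.5, with a median of 8.09 against 8.04. The 26 SHP1705 peaks ran from 0.296 to 34.5, with a median of 1.09 against 0.786. Of these, 7 were lower than any peak called in DMSO or MG132, and 6 were narrower than the 355 bp that the combination required.

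**Figure D2:**
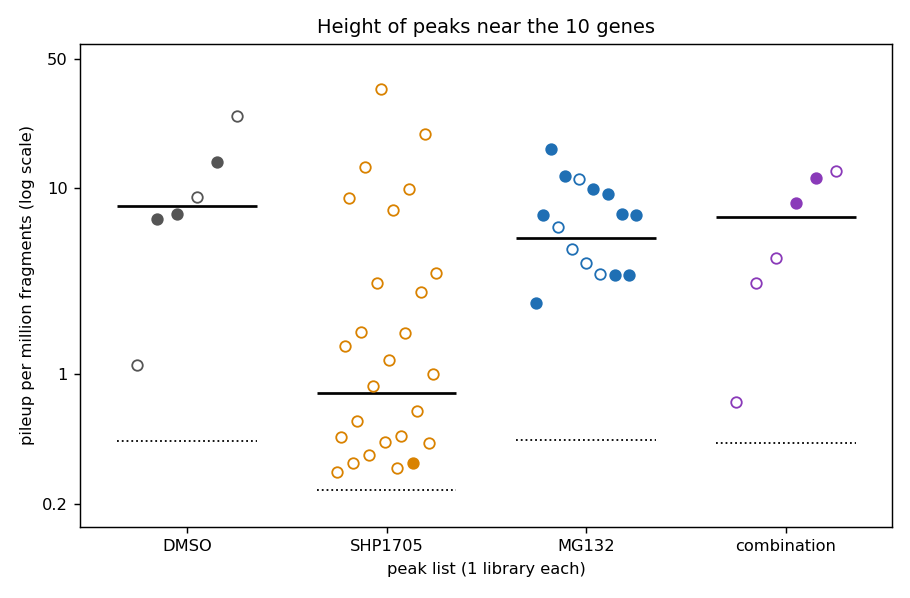
Pileup in FPM (vertical log axis) of each distinct peak near the 10 genes, by list. Filled points have a centred summit, solid lines mark the median of all peaks of the list and dotted lines the lowest pileup called. MG132 peaks lie between 2.42 and 16.3, while SHP1705 peaks reach down to 0.296.

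Against DMSO, 5 of 10 genes had a peak in MG132 and none in DMSO, against 23.6% of all genes. These were IFI44, IFIT1, IFIT3, MX2 and OAS1, and no member had the reverse pattern, which 11.1% of all genes had. The combination had a peak and DMSO none at IFI44L, IFIT1, IFIT3 and MX2, 4 of 10, against 20.1%. The reverse held at IFIH1, ISG15 and ISG20, 3 of 10, against 14.8%. SHP1705 had a peak and DMSO none at 6 of 10 genes, against 33.6%, and the reverse held at 0 of 10, against 4.02%. These comparisons share the DMSO list, and MG132 against DMSO was also used in choosing the genes. IFIT1, IFIT3 and MX2 had peaks in every list but DMSO, a pattern of 11.5% of all genes, and IFI44 and OAS1 in SHP1705 and MG132 only, a pattern of 8.78%. By region, 15 of 15 MG132 peaks overlapped no DMSO peak (87.3% of the whole list), as did 5 of 6 combination peaks (85.8%) and 25 of 26 SHP1705 peaks (90.0%).

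The member windows covered 0.427 Mb once shared stretches were counted once. They held 35.1 MG132 peaks per Mb, against 21.9 over the windows of all protein-coding genes. The values were 60.8 against 36.1 in SHP1705, 14.0 against 14.2 in DMSO and 14.0 against 17.4 in the combination. The members were picked on the MG132, DMSO and combination peaks, so densities in those lists partly show that choice. The median member window was 43275 bp and that of all genes 44170.5 bp. At the edge of the windows, an MG132 peak 9670 bp before IFIT3 and a combination peak 9277 bp from MX2 were just inside. MG132 peaks 10198 bp from MX2, 10521 bp from OAS1 and 10550 bp from MX1 were just outside.

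**Figure D3:**
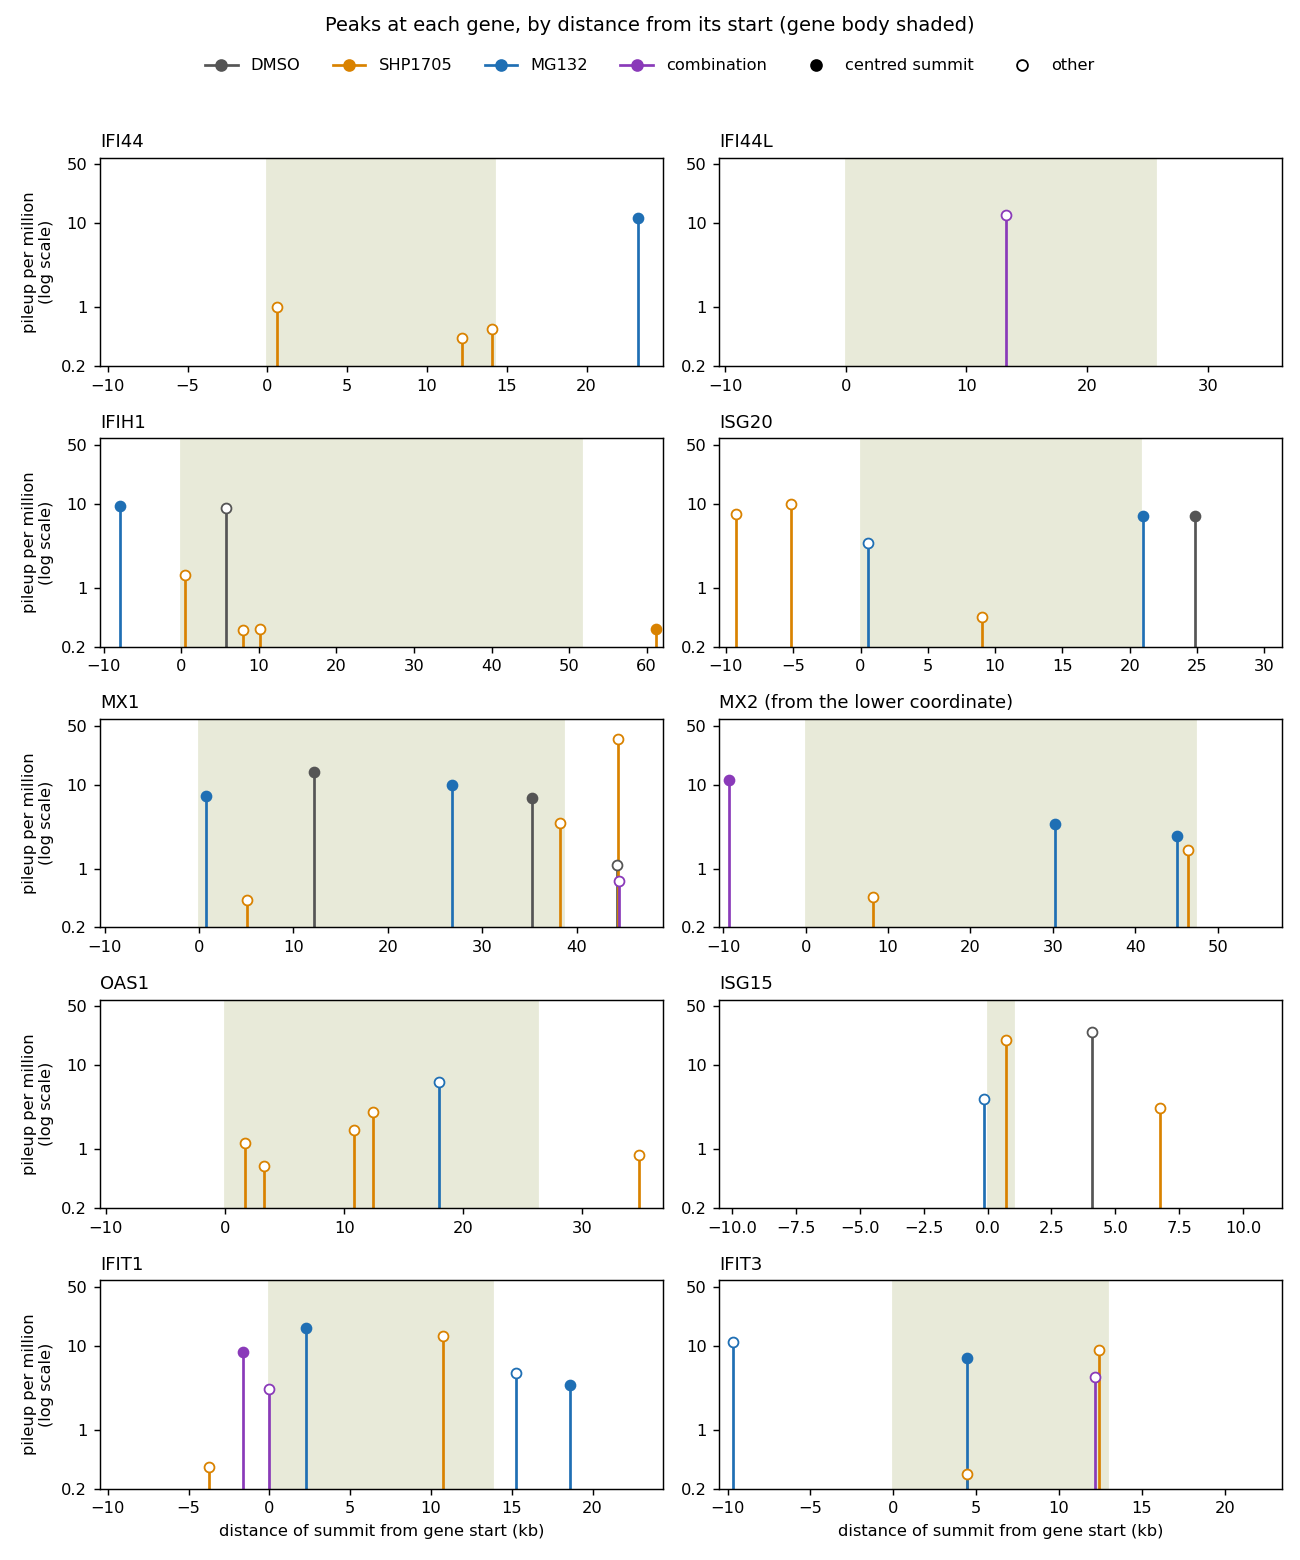
Peaks at each gene, with the distance of the summit from the gene's first annotated base in kb (horizontal axis; from the lower coordinate for MX2) and the pileup in FPM (vertical log axis), coloured by list. Gene bodies are shaded, and the SHP1705 peak at the start of IFI44 is drawn there only although it is also near IFI44L. No MG132 peak shown overlaps a combination peak, where 86.7% of all MG132 peaks overlap none and 83.7% of all combination peaks overlap no MG132 peak.

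IFIH1 encodes MDA5, a cytosolic sensor of long double-stranded RNA, and lies on the minus strand at chr2:162267074-162318684. DMSO had 1 peak inside it, 5731 bp from the start, with 8.95 FPM. MG132 had 1 peak, 7951 bp before the start, with 9.31 FPM, and that summit lay inside the neighbouring gene GCA. SHP1705 had 4, of which the tallest spanned chr2:162317854-162318661 at the start of the gene with 1.42 FPM, and the other 3 were at 0.313 to 0.330. The combination had none. The DMSO and MG132 peaks were of similar height and lay on either side of the gene's start.

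OAS1 senses double-stranded RNA and makes oligoadenylates, small messengers of the antiviral response. It lies at chr12:112906962-112933219. MG132 had 1 peak there, 68.3% of the way along the gene, with 170 fragments or 6.23 FPM. SHP1705 had 4 peaks inside the gene, from 0.634 to 2.76 FPM, and a further one at 0.862 in the neighbouring OAS3. DMSO and the combination had none. In FPM the MG132 peak was taller than each SHP1705 peak, but in fragments the tallest SHP1705 peak was higher, at 327 against 170, and the 2 lists differ in median height.

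ISG20 encodes an RNA exonuclease at chr15:88635632-88656483. MG132 had 2 peaks, one 560 bp into the gene with 3.44 FPM and one 111 bp past its end with 7.18. DMSO had 1 peak 4027 bp past the end with 7.23 FPM. SHP1705 had a low peak inside the gene at 0.456, and 2 taller ones at 7.65 and 9.97 that lay in AEN, another exonuclease gene beside it. The combination had none. The DMSO and MG132 peaks past the end did not overlap.

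IFIT1 and IFIT3 encode partner proteins of the antiviral response, and lie on chromosome 10 at 89392623 to 89406487 and 89327997 to 89340968. IFIT1 had the tallest MG132 peak of the 10 genes, 2241 bp into the gene, with 446 fragments or 16.3 FPM. MG132 had 2 further peaks past its end, at 4.73 and 3.41 FPM. The combination had 2 peaks before or at the start, at 8.37 FPM 1630 bp upstream and at 3.11 over the promoter. SHP1705 had a wide peak of 1620 bp inside the gene at 13.0 FPM and a low one upstream at 0.363. DMSO had none at either IFIT gene. Around the IFIT1 start, the combination summits lay upstream and the nearest MG132 summit downstream.

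At IFIT3, MG132 had the peak over the downstream start at 7.15 FPM and another 9670 bp before the gene at 11.2. SHP1705 overlapped the first of these with 0.296 FPM, or 35 fragments. Near the gene's end, 93.6% of the way along, the combination had a peak of 426 bp at 4.24 FPM. It lay within a SHP1705 peak of 2192 bp at 8.87 FPM. RefSeq places the IFIT1 and IFIT3 peaks also inside the long span of LIPA, a lysosomal lipase gene.

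ISG15 encodes a ubiquitin-like modifier that is attached to proteins during the response, and is a gene of 1044 bp at chr1:1013497-1014540. The highest value was in DMSO, 3058 bp past the end, with 729 fragments or 24.5 FPM. SHP1705 had 2326 fragments inside the gene, or 19.7 FPM, and a peak at 3.08 in the neighbouring AGRN. MG132 had only the promoter peak at 3.96 FPM, and the combination none. The summit of that MG132 peak was 153 bp before the start, upstream of both copies of the element.

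MX1 and MX2 encode dynamin-like GTPases that trap viral nucleoproteins and capsids, and lie side by side on chromosome 21 at 41420558 to 41459214 and 41362027 to 41409393. MX1 was the one member with peaks in all 4 lists, a pattern of 36.9% of all genes. DMSO had peaks inside it at 13.9 and 6.83 FPM, and MG132 at 7.26 near the start and 9.97 further in, with no overlap between them. SHP1705 had 0.423 and, near the end of the gene, 3.48. The combination had no peak inside MX1. Past the end, inside TMPRSS2, a membrane protease gene, lay the one region held by 3 lists. There SHP1705 reached 4084 fragments or 34.5 FPM (95% Poisson interval 33.5 to 35.6), DMSO 33 fragments or 1.11 (0.764 to 1.56), and the combination 20 fragments or 0.706 (0.431 to 1.09). MG132 had no peak there. These intervals cover counting error only, and duplicates make them too narrow.

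At MX2, MG132 had 2 peaks inside the gene at 3.41 and 2.42 FPM, the latter 354 bp wide and thus at the caller's minimum. SHP1705 had 0.465 and 1.66. The combination had 1 peak at 11.4 FPM, 9277 bp outside the gene and inside FAM3B. DMSO had none. The combination's summits near both MX genes thus lay in neighbouring genes.

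IFI44 and IFI44L are neighbours on chromosome 1, at 78649789 to 78664078 and 78620448 to 78646145, with products whose roles are less well defined. MG132 had 1 peak, 8907 bp past the end of IFI44, with 319 fragments or 11.7 FPM. The combination had 1, in the middle of IFI44L, with 352 fragments or 12.4 FPM. SHP1705 had 3 inside IFI44, from 0.431 to 0.997, the one at the start being near both genes. DMSO had none. These 2 genes hold the opposite pattern in MG132 and the combination at much the same height.

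Summits near the middle of a peak were common in the MG132, DMSO and combination lists as wholes, and less so in SHP1705. A centred summit is one within 5 bp of the middle of its peak. Of the MG132 peaks 10 of 15 were centred (66.7%, exact 95% interval 38.4 to 88.2), against 57.4% of the whole list. In DMSO 3 of 6 were (50%, 11.8 to 88.2) against 52.4%, in the combination 2 of 6 (33.3%, 4.33 to 77.7) against 54.0%, and in SHP1705 1 of 26 (3.85%, 0.0973 to 19.6) against 29.2%. The MG132 peaks with a centred summit included all or some of those at IFI44, IFIH1, ISG20, MX1, MX2, IFIT1 and IFIT3. The ISG15 and OAS1 peaks were off centre, by 100 and 186 bp. Centred MG132 peaks were 354 to 500 bp wide and 2.42 to 16.3 FPM high, and the other 5 were 357 to 847 bp wide and 3.44 to 11.2 high. Duplicate fragments were kept in all lists, and their part in these peaks was not tested. With centred peaks left out, MG132 had peaks near 5 members against 47.9% of all genes, and the combination near 4 against 42.0%, so both counts were near the background.

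**Figure D4:**
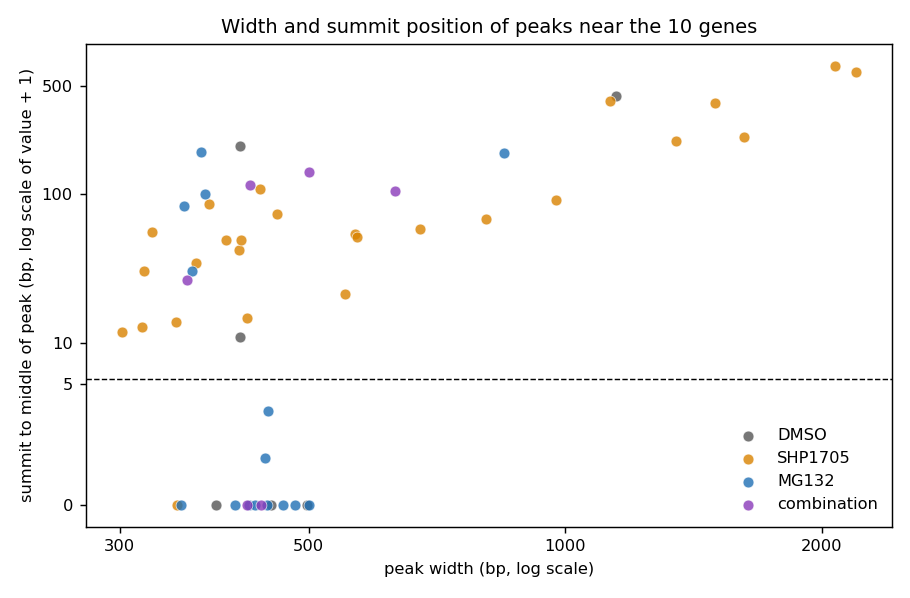
Peak width in bp (horizontal log axis) against the distance of the summit from the middle of the peak in bp (vertical log axis of the value plus 1), for every distinct peak near the 10 genes. Points below the dashed line have a centred summit. They include 10 of the 15 MG132 peaks, where 57.4% of the whole list is centred. In SHP1705 they include 1 of 26, where 29.2% of the whole list is.

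Median widths were 432 bp in MG132, 433 bp in the combination, 433.5 bp in DMSO and 448.5 bp in SHP1705, close to each list as a whole. SHP1705 held the widest, up to 2192 bp at IFIT3. The authors' fold of a peak over its local background is usable within a list only. It had a median of 24.3 for the MG132 member peaks against 18.5 in that list. The medians were 23.6 against 22.7 in DMSO, 19.6 against 20.9 in the combination and 5.90 against 5.03 in SHP1705. With background taken from 10000 bp around the peak itself, the fold has a ceiling. In MG132 this was 28.2, and the highest fold in that list was 27.9. The members were picked partly on these MG132 peaks.

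Among summits inside members with a known direction, SHP1705 had 3 of 17 in the last 10% of the gene, at IFI44, MX1 and IFIT3, where 25.3% of its summits inside all genes lay so. MG132 had 0 of 6 against 13.4%, the combination 1 of 2 against 13.8% and DMSO 1 of 3 against 14.7%. Outside the members, 6 of 7 SHP1705 summits lay in another protein-coding gene. So did 4 of 7 in MG132, 4 of 4 in the combination and 1 of 3 in DMSO. The share over the windows of all genes was not computed. The summits outside IFIT1 and IFIT3 are in this count through the long span of LIPA. Without the outside summits in other genes, MG132 had peaks near 8 members and the combination near 2, IFI44L and IFIT3. This alternative was chosen after the data were seen, and the share of all genes was not computed for it. That setting also drops the combination's IFIT1 promoter peak, whose summit is 36 bp before the gene and inside LIPA.

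Among 56 other genes of the interferon pathway, MG132 had peaks near 36, where 71.3% of all genes had one. The combination had peaks near 37 against 64.0%, DMSO near 30 against 58.8%, and SHP1705 near 55 against 88.4%. There were 10 of 56 with a peak in MG132 and none in the combination, against 20.2% of all genes, and 11 with the reverse, against 12.9%. By role, the sensors and adaptors had 5 of 9 in MG132 and 5 in the combination, interferons and receptors 5 of 8 in each, and signal transducers 5 of 7 in each. Effectors had 18 of 27 in MG132 and 21 in the combination, and regulators that damp the response 3 of 5 and 1. The 10 with the members' leading pattern were IFNL1, IFNLR1, IRF7, IFIT2, IFIT5, TRIM22, XAF1, HERC6, USP18 and TREX1. Of these IFIT2 and IFIT5, neighbours of IFIT3 and IFIT1, share MG132 peaks with them.

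TRIM22, a ubiquitin ligase, had the tallest MG132 peak of these 10, at 17.7 FPM, with none in DMSO. HERC6 reached 15.0, TREX1, a DNA exonuclease that limits the response, 9.56, and USP18, which removes ISG15 from proteins, 5.57. IRF9, the DNA-binding part of the interferon-activated complex, was highest of all 56 in MG132 at 17.8 but had a combination peak too, at 5.22. Genes with the reverse pattern included IFNGR2, IL10RB, TYK2, EIF2AK2, IFITM1, IFITM2, IFITM3, HERC5, DDX60 and CXCL10. The chemokine gene CXCL10 had 11.6 FPM in the combination, and EIF2AK2, the kinase PKR that halts translation, 11.1. IFITM1, IFITM2 and IFITM3 lie together, and IFITM1 and IFITM2 share a combination value of 9.95. In SHP1705 the tallest were IFI35 at 103 FPM, and IFITM1 and IFITM3, which share a value of 99.4. In the combination they were IKBKE, a kinase upstream of IRF3, at 40.6, CMPK2 at 29.3 and ADAR at 19.1. In DMSO they were IFNAR2, an interferon receptor chain, at 54.9, IFNGR1 at 22.1 and ZC3HAV1 at 21.7.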

How the data were processed

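The series measured STARR-seq reporter RNA in 4 libraries of MDA-MB-231 cells, 1 per treatment. Reads were trimmed, checked and aligned to hg38 with tools that the submitters' processing notes list as Trimmomatic, FastQC and Bowtie2, with no version. The caller was MACS 2.2.6, per the file headers, run on each library by itself with paired ends, a q limit of 0.01, all duplicates and no control, so that background came from 10000 bp around a site. The smallest width it allowed was 355 bp for the combination, 354 bp for MG132, 346 bp for DMSO and 299 bp for SHP1705. Each peak's signal is the deposited pileup, not scaled for depth by the authors. The deposited fold is the ratio of pileup to local background. The deposited −log10 p-value and −log10 q-value are the authors' too, and rank or filter peaks within a list.

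From these, pileups were divided by the fragments in each header and multiplied by 1000000. Genes, strand and promoter windows came from RefSeq tables of GRCh38.p14, whose main chromosomes have hg38 coordinates. Overlap needed 1 bp. Intervals on shares are exact binomial (Clopper-Pearson) and cover counting error only. The counting rules were tested on simulated data. Python 3.11.15, pandas 2.3.3 and scipy 1.17.1 were used. The members and the list of 56 other pathway genes were chosen with earlier results of these data known. All 10 members are named. Other pathway genes are named for a peak in only MG132 or only the combination of those 2 lists, or for 1 of the 3 tallest peaks in a list, and 1 gene that meets this rule is not reported here. Alternatives changed the peak threshold, window, list length, width, height, centring and overlap. Peaks on other contigs were left out.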

Additional observations from a re-analysis of the deposited data

How the results depend on the processing

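Over 28 results, 93 of 120 values in the unit of the reported value stayed within 1.5 times it, or within its interval for shares, and 27 did not. The excess of members with a peak in MG132 over the combination was 4 and stayed at 4 with a −log10 q of at least 5, with only peaks of 355 bp or wider, with a common minimum height of 0.440 per 1000000 fragments (FPM), and inside the genes. At 47822 peaks per list it was 5. It went to 1 with centred summits left out and to 0 in a 50 kb window, so it depends on both. The members were picked on this contrast, so an excess that stays in filtered versions of the same lists is no independent support. At a −log10 q of at least 5, 70.6% of all genes had a peak in MG132 and 63.3% in the combination. With centred summits left out, MG132 had peaks near 5 members, against 47.9% of all genes. MG132 without the combination occurred at 3 members and the reverse at 2, against 20.5% and 14.6% of all genes. Distinct peaks then numbered 3 in DMSO and 5 in MG132. In the 50 kb window 8 members had a DMSO peak against 87.6% of all genes, and 10 a combination peak against 91.7%. Both one-sided patterns were at 0, against 7.16% for MG132 alone of the pair and 3.66% for the reverse, and distinct peaks numbered 55 for SHP1705, 30 for MG132, 17 for DMSO and 15 for the combination. At that distance 95.2% of all genes had an MG132 peak. Inside the genes 2 members had a DMSO peak against 42.1%, and 2 a combination peak against 45.7%, with 3, 8 and 2 distinct peaks in DMSO, MG132 and the combination, and 17 and 22 other pathway genes had a peak in DMSO and the combination. At equal list length SHP1705 had 16 distinct peaks near members. With peaks in neighbouring genes left out, chosen after the data were seen, the combination had peaks near 2 members and 2 distinct peaks, and the excess was 6. With overlap of 50% of both peaks, 1 combination peak overlapped another list. The SHP1705 median was 1.69 FPM at the common minimum height. In another unit, divided by the median pileup of all peaks of the list, the medians were 1.32 for MG132, 1.01 for DMSO and 0.897 for the combination.

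No paired analysis was possible because each treatment has 1 library. Leaving out a replicate was not possible for the same reason. Of the SHP1705 peaks near members, 7 were lower than any peak called in DMSO or MG132. Libraries were not matched for depth.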
